A study of Mus musculus with 17 samples.

Results

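The acetylation of histone H3 at lysine 9 (H3K9ac) in CD8 thymocytes without Tcf1 and Lef1 was set beside that of wild-type CD4 thymocytes, over every island of both libraries. An island is an interval that the authors called as enriched in 1 library, with its number of reads. The pair held 39167 islands, 6516 of the deficient CD8 cells and 32651 of the CD4 cells, out of 346699 islands in the 12 histone libraries of the series. Islands that shared at least 1 bp were merged, which gave 34472 regions.

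The series holds 17 mouse samples, in which 3 groups of mature thymocytes each have 1 chromatin immunoprecipitation library (ChIP-seq) for H3K4me3, H3K27me3, H3K27ac and H3K9ac and 1 input, beside 2 Tcf1 samples of splenic CD8 cells. The group called DKO CD8 has the genotype Tcf1-/-Lef1-/-, with both genes deleted by CD4-Cre, a recombinase that acts from the stage at which thymocytes begin to express CD4. WT CD4 and WT CD8 are wild type, and the Tcf1 peaks come from wild-type splenic CD8 cells with a Tcf1-/- library as control, so they were taken in another tissue than the histone marks. The CD8 thymocytes were sorted as high for the T cell receptor beta chain, without CD69 and CD24 and positive for CD8. The WT CD4 samples carry the same CD8 sort label, while their titles and source name say CD4, and the title was followed. Several samples were sequenced a second time at another read length, and the labels do not say which. The sources at hand do not give the age, sex or number of the mice or any pooling of animals, and the deletion and the cell identity were not checked, because genes were not analysed here.

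H3K9ac is placed by acetyltransferases of the Gcn5 and PCAF family at active promoters and enhancers, where it usually lies together with H3K27ac, and at promoters with H3K4me3. H3K27me3, the mark of Polycomb repression, usually lies elsewhere. Tcf1 and Lef1 are related HMG-box factors of T cell development that have been described as carrying histone deacetylase activity and as holding CD4-lineage genes silent in CD8 cells. The comparison places acetylation in CD8 cells without both factors beside that of the other T cell lineage.

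Each group had 1 H3K9ac library, so no difference below has a replicate check and no test was made. Intervals are exact Clopper-Pearson intervals at 95%. Those of shares treat regions as independent draws, and those of ratios treat reads so. Both cover counting error only, and not the spread between animals, libraries or island calls. Reads amplified by PCR are not independent molecules. Differences in genotype, in lineage and between libraries cannot be told apart in this pair, nor can less mark per cell and fewer cells with the mark.

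The H3K9ac landscape of DKO CD8 lay for the most part inside that of WT CD4, and WT CD4 had many more regions besides. Of the 34472 regions, 4579 (13.3%, 12.9 to 13.6) had an island in both libraries. DKO CD8 alone had 1909 (5.54%) and WT CD4 alone 27984 (81.2%). Counted from each side, 70.7% (69.6 to 71.8) of the DKO CD8 islands and 14.3% (13.9 to 14.7) of the WT CD4 islands lay in shared regions. These shared regions held 79.0% of the DKO CD8 island reads and 31.0% of those of WT CD4. The sequence covered in both came to 6.23 Mb, which is 54.1% of the DKO CD8 islands and 13.7% of the WT CD4 islands.

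The libraries differed in how much was called more than in the density of what was called. DKO CD8 islands held 281383 reads over 11.5 Mb, or 24.4 reads per kb, with a median of 33 reads, a minimum of 13 and a median width of 1600 bp. WT CD4 islands held 1058430 reads over 45.6 Mb, or 23.2 reads per kb, with a median of 22 reads, a minimum of 10 and a median width of 1200 bp. The WT CD8 list held 9860 islands with 248234 reads. With the DKO CD8 and WT CD4 lists trimmed to equal covered length by read density, 3612 regions were shared, DKO CD8 alone had 2878 and WT CD4 alone 6418, so the share in both was 28.0% in place of 13.3%.

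Shared regions were the strong ones. Their median was 37 reads in DKO CD8 and 57 in WT CD4, against 28 reads in regions of DKO CD8 alone and 21 in regions of WT CD4 alone. Of 12409 WT CD4 regions with 10 to 19 reads, 1.08% had a DKO CD8 island. The share was 3.95% at 20 to 29 reads, 22.4% at 30 to 49, 64.6% at 50 to 99 and 82.4% (79.7 to 84.8) at 100 or more reads, where 873 regions lay. Seen from DKO CD8 the share started high: 57.2% at 10 to 19 reads, 55.8% at 20 to 29, 72.7% at 30 to 49, 92.9% at 50 to 99 and 94.9% (90.5 to 97.6) of 175 regions at 100 or more. At 50 or more reads, 1270 of 4030 WT CD4 regions (31.5%) lacked a DKO CD8 island and 90 of 1321 DKO CD8 regions (6.81%) lacked a WT CD4 island. A DKO CD8 region thus had a WT CD4 counterpart more often than the reverse in every read class.

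**Figure D1:**
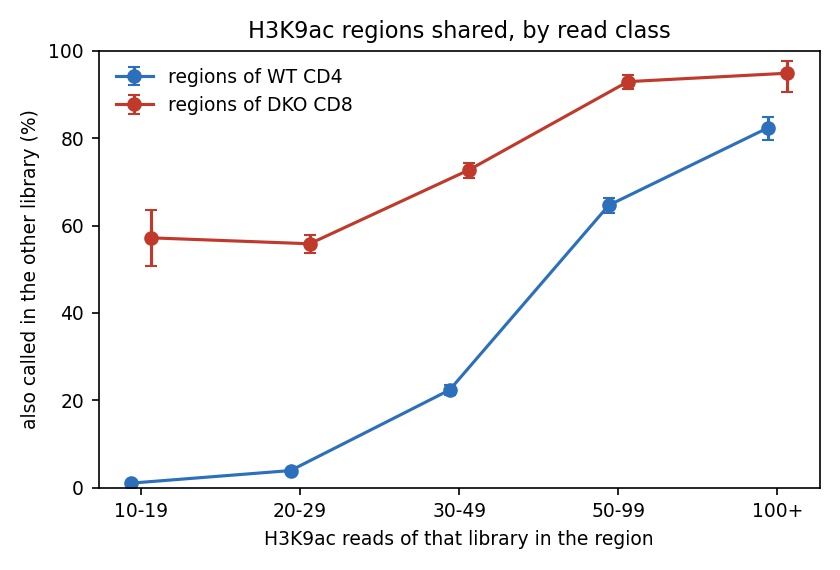
Share of H3K9ac regions of each library that also had an island in the other library (vertical axis, percent), by the reads of that library in the region (horizontal axis). Bars are exact 95% intervals for counting error; the share runs from 1.08% to 82.4% in WT CD4 regions and from 55.8% to 94.9% in DKO CD8 regions.

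In shape the shared regions were alike. Each library had a single island in 4470 of the 4579. The median island length in a shared region was 1400 bp in DKO CD8 and 1600 bp in WT CD4, with WT CD4 the wider in 2158 regions, DKO CD8 in 1772 and both equal in 649. Regions of 1 library were seldom the borders of shared ones: 48 of DKO CD8 alone (2.51%) and 827 of WT CD4 alone (2.96%) lay within 5 kb of a shared region, and the median distances were 214 and 146 kb.

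The other marks of the same cells, which had no part in the choice of regions, separated the classes. Shared H3K9ac regions carried a DKO CD8 H3K27ac island in 96.4% and a WT CD4 H3K27ac island in 96.0%, and an H3K4me3 island in 87.1% and 90.2%. These are the mark combinations of active promoters. Regions of DKO CD8 alone had an H3K27ac island of DKO CD8 itself in 19.9% (18.1 to 21.7) and an H3K4me3 island in 19.2%. Regions of WT CD4 alone had their own H3K27ac in 25.05% (24.5 to 25.6) and their own H3K4me3 in 21.1%. Most regions of 1 library therefore lacked the second acetylation mark in the very cells in which H3K9ac was called.

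H3K27me3 followed another order. An H3K27me3 island of at least 1 of the 3 groups touched 15.2% of shared regions and 26.8% of all regions. It touched 36.4% (34.2 to 38.6) of those called in DKO CD8 only and 28.1% of those called in WT CD4 only. WT CD8 islands alone touched 22.3% and 13.9% of these. Islands of the same cells touched 18.0% of regions of DKO CD8 alone and 19.5% of those of WT CD4 alone. At shared regions DKO CD8 islands touched 11.6% and WT CD4 islands 6.07%. The higher share in DKO CD8 alone was thus not seen with H3K27me3 of the same cells. At 36.3% of the regions of DKO CD8 alone and 41.7% of those of WT CD4 alone, none of the other 3 marks in any group and no Tcf1 peak was called, which held at 0.808% of shared regions. The part that low read numbers and places of high signal in many libraries have in the regions of 1 library was not tested beyond the read classes and subsets given here.

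**Figure D2:**
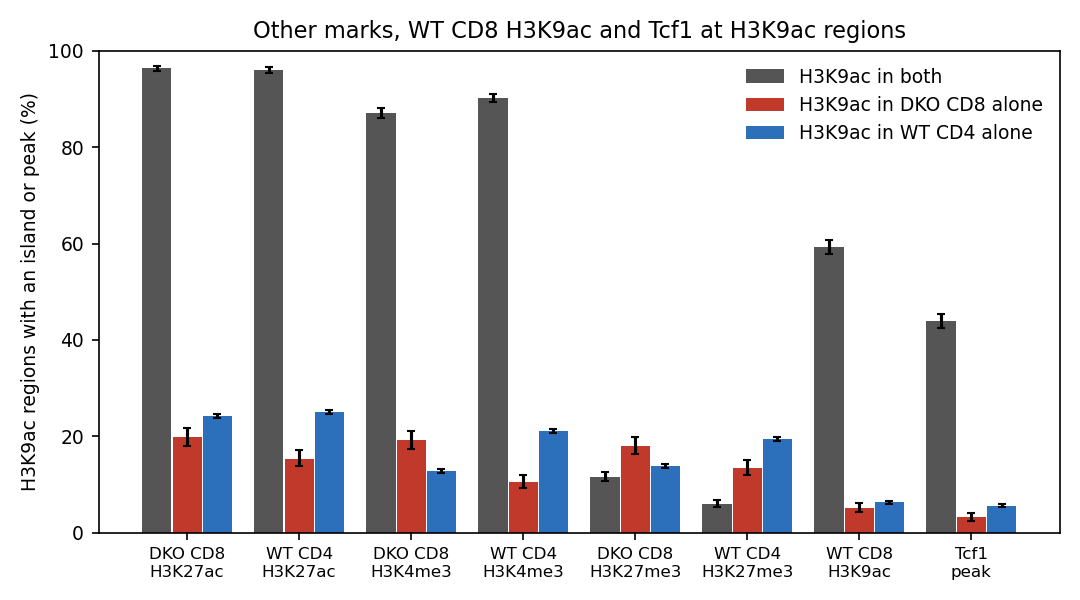
Share of H3K9ac regions (vertical axis, percent) of the 3 classes, shared, DKO CD8 alone and WT CD4 alone, with an island of each other histone library or a Tcf1 peak (horizontal axis). Bars are exact 95% intervals for counting error; DKO CD8 H3K27ac covers 96.4% of shared regions, 19.9% of those of DKO CD8 alone and 24.2% of those of WT CD4 alone.

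Read number moved with these shares in WT CD4. Among regions of WT CD4 alone, the share with WT CD4 H3K27ac was 12.7% at 10 to 19 reads, 23.8% at 20 to 29, 50.4% at 30 to 49, 69.7% at 50 to 99 and 44.2% at 100 or more. The shared regions of the same read classes were higher throughout, at 67.2%, 83.3%, 95.9%, 99.4% and 99.4%. In regions of DKO CD8 alone the share with DKO CD8 H3K27ac stayed between 18.2% and 33.3% over all read classes. At 50 or more reads, 66.6% (63.9 to 69.2) of 1270 regions of WT CD4 alone and 32.2% (22.8 to 42.9) of 90 of DKO CD8 alone had H3K27ac of the same cells. At 100 or more reads only 154 and 9 such regions were left. With both lists trimmed to equal covered length the shares over the whole classes were close, at 43.4% and 42.6%.

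Most of the 1270 strong regions of WT CD4 alone had H3K27ac in DKO CD8 too. An H3K27ac island lay there in both groups in 794 (62.5%), in WT CD4 only in 53, in DKO CD8 only in 49 and in neither in 374. Over the 794, after centring on the median of all regions that mark shared, H3K27ac was within 2-fold in 707, 2-fold or more lower in DKO CD8 in 76 and higher in 11, with a median log2 ratio of -0.14 against 0.11 at shared H3K9ac regions of the same strength. The absence of an H3K9ac call in DKO CD8 thus often stood beside a similar H3K27ac level. Of the 90 strong regions of DKO CD8 alone, 13 had H3K27ac in both groups, 16 in DKO CD8 only and 59 in neither. An H3K27me3 island of some group touched 60 of these 90 and 517 of the 1270 strong regions of WT CD4 alone.

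Few regions differed by both acetylation marks. H3K9ac and H3K27ac were both called in DKO CD8 and neither in WT CD4 at 130 of the 1909 regions of DKO CD8 alone (6.81%), of which 63 had no H3K27me3 island in any group. The reverse held at 1098 of the 27984 regions of WT CD4 alone (3.92%), of which 579 had no H3K27me3 island. A further 1007 regions of WT CD4 alone (3.60%) had H3K27ac in DKO CD8 only, nearly as many as had it in WT CD4 only. Over all 34472 H3K9ac regions, H3K27ac was called in DKO CD8 only at 1174 and in WT CD4 only at 1167. With H3K4me3 split in the same way too, 5 regions without H3K27me3 were left on the DKO CD8 side and 110 on the WT CD4 side. In WT CD8, 10 of the 63 and 105 of the 579 had an H3K27ac island, and 5 and 30 an H3K9ac island.

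Where H3K27ac was called in both groups its level leaned towards the H3K9ac class, by small amounts and not in every read class. The centred log2 ratio of H3K27ac, DKO CD8 over WT CD4, had a median of 0.15 at 252 regions of DKO CD8 alone, 0.12 at 4375 shared regions and -0.08 at 5982 regions of WT CD4 alone. At least 2-fold higher H3K27ac was found at 11.5% of the first and 3.48% of the last, and at least 2-fold lower at 3.97% and 8.07%. Over all 16289 shared H3K27ac regions these shares were 4.30% and 7.25%. By DKO CD8 reads, the median of lone DKO CD8 regions was above that of shared ones at 20 to 29 (0.13 and 0.04). It was also above at 30 to 49 (0.31 and 0.11), over 122 and 102 lone regions. It was below at 10 to 19 reads (-0.23 and -0.005) and at 50 to 99 (0.12 and 0.18), over 15 and 12 lone regions. At 100 or more reads 1 lone region was left. H3K4me3 had medians of 0.36 at 93 regions of DKO CD8 alone, -0.04 at 3834 shared regions and -0.07 at 2768 regions of WT CD4 alone. It was at least 2-fold higher at 18 (19.4%) of the 93 and 159 (5.74%) of the 2768, and at least 2-fold lower at 4 (4.30%) and 183 (6.61%), against 6.08% and 4.31% of all 7547 shared H3K4me3 regions.

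**Figure D3:**
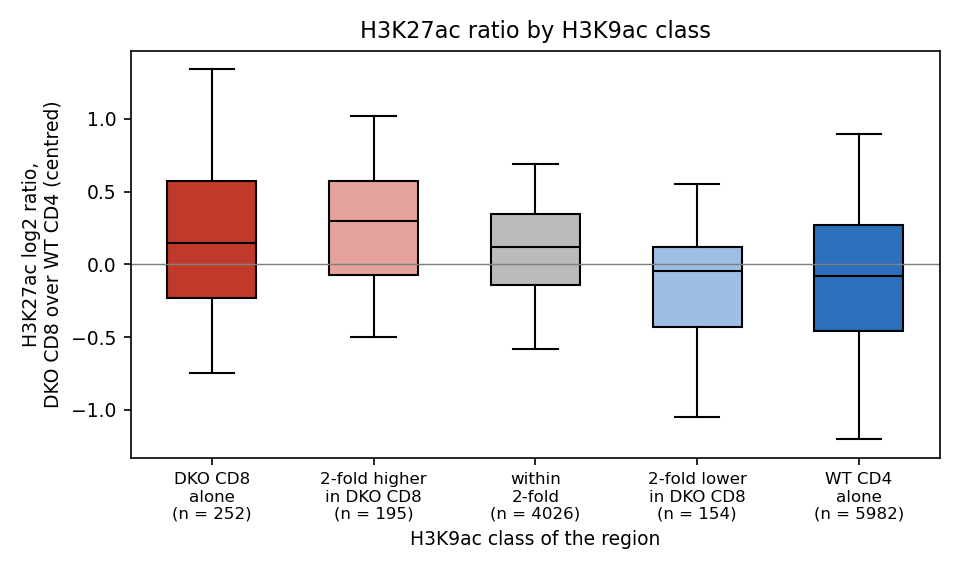
H3K27ac log2 ratio, DKO CD8 over WT CD4, centred on its median over all shared H3K27ac regions (vertical axis), by the H3K9ac class of the region (horizontal axis). Boxes span the interquartile range with the median as a line, whiskers run from the 5th to the 95th percentile; the class medians lie between -0.08 and 0.30, and the classes overlap widely.

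The same regions can also be counted from H3K27ac, which is no second reading. Of 289 H3K9ac regions where H3K27ac was at least 2-fold higher in DKO CD8, 10.03% had H3K9ac in DKO CD8 alone, 18.0% in both and 72.0% in WT CD4 alone. Of 545 regions where H3K27ac was at least 2-fold lower, the shares were 1.83%, 9.54% and 88.6%. At 9775 regions within 2-fold they were 2.18%, 43.7% and 54.1%. The share of DKO CD8 alone was thus raised where H3K27ac was higher, and hardly differed between lower and within 2-fold. Where H3K27ac was called in DKO CD8 only, DKO CD8 alone had 11.1% of 1174 regions. Where it was called in WT CD4 only, DKO CD8 alone had 3.94% of 1167. Regions of WT CD4 alone were the largest class in each.

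At shared regions WT CD4 had 1.5-fold more reads than DKO CD8 at the median, and each ratio was centred on this value. Relative to it, DKO CD8 was higher by 2-fold or more at 278 of 4579 regions (6.07%) and lower to the same degree at 156 (3.41%). The regions nearest the threshold had 24 DKO CD8 and 18 WT CD4 reads (log2 1) just inside and 37 and 28 (0.99) just outside on the higher side, and 19 and 57 (-1) and 37 and 110 (-0.99) on the lower side. Divided by total island reads instead, every log2 ratio rises by 1.33, and 3391 regions were higher and 0 lower, so the split between higher and lower rests on the centring. Of the calls 64.1% were higher, against 46.4% (122 higher and 141 lower) with at least 50 reads in the stronger library and 83.8% (62 and 12) at 3-fold.

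The direction of a call followed the WT CD4 read class. These reads are the denominator of the ratio, so such classes by themselves favour higher calls at few reads and lower calls at many. At 10 to 19 WT CD4 reads, 106 of 134 shared regions were called higher and 0 lower, at a median log2 ratio of 1.35. At 20 to 29 reads the counts were 106 and 0 (0.72), at 30 to 49 reads 44 and 1 (0.17), at 50 to 99 reads 18 and 88 (-0.17), and at 100 or more 4 and 67 (-0.24). Since no DKO CD8 island held fewer than 13 reads, a weak WT CD4 region could be shared only with a raised ratio. Calls also sat in regions of which 1 library covered little: the islands' smaller cover had a median of 45.5% of the region in higher calls and 40.3% in lower calls, against 71.4% in the others.

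Where H3K27ac was called in both groups, its median ratio kept the order of H3K9ac. The median centred log2 ratio of H3K27ac was 0.30 at 195 regions called higher for H3K9ac, 0.12 at 4026 within 2-fold and -0.05 at 154 called lower. Of those called higher, 12 were also at least 2-fold higher in H3K27ac and 1 lower. Of those called lower, 0 were higher and 11 lower. H3K4me3 had medians of 0.25 at 117 regions called higher and -0.21 at 136 called lower. The rest of the 278 regions called higher did not follow this order. H3K27ac was called in neither group at 62 of them, in WT CD4 only at 12 and in DKO CD8 only at 9, and H3K4me3 in neither at 86, in WT CD4 only at 45 and in DKO CD8 only at 30. At the 23 shared regions with H3K27ac in WT CD4 only, the median H3K9ac log2 ratio was 1.01, with 12 called higher and 0 lower, against 0.64 at the 37 with H3K27ac in DKO CD8 only.

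**Figure D4:**
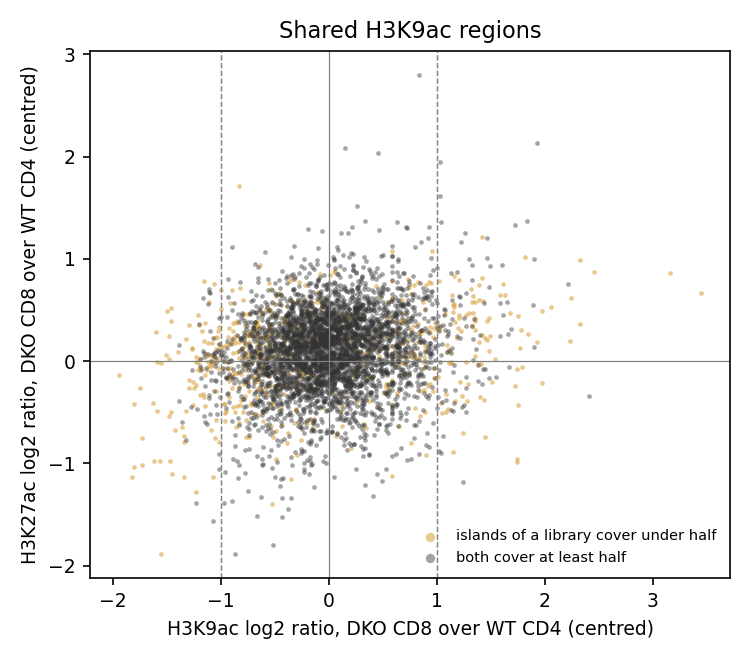
Centred log2 ratios, DKO CD8 over WT CD4, of H3K9ac (horizontal axis) and H3K27ac (vertical axis) at 4375 shared H3K9ac regions with H3K27ac in both groups, 1 point a region. Colour shows whether islands of both libraries covered at least 50% of the region, and not the H3K9ac call. The spread along H3K9ac is wider than along H3K27ac, and few points lie beyond 2-fold on both axes.

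With at least 50 reads in the stronger library, islands of both libraries over at least 50% of the region and no H3K27me3 island in any group, 2087 shared regions were left. Of these 25 (1.20%) were called higher at 2-fold and 54 (2.59%) lower. H3K27ac had the same sign at 24 of the 25 higher regions, with a median of 0.43, and at 26 of the 54 lower ones, with a median of 0.01, while its median over all 2087 was 0.11. An H3K4me3 island of either group lay at 18 of the 25 higher and 52 of the 54 lower regions, beside 97.4% of all. A Tcf1 peak lay at 11 of the 25 higher and 26 of the 54 lower regions, beside 53.2% of all. H3K27ac thus leaned the same way at the higher regions, though its median over all was above 0 too. At the lower regions its median also lay below that of all, by a smaller amount. The share of lower regions with H3K4me3 was near that of all.

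The highest ratio among them lay on chromosome 13, 73839401 to 73842200 (mm9), with 71 H3K9ac reads in DKO CD8 and 28 in WT CD4. Its centred log2 ratio was 1.93 (1.28 to 2.61). Over the H3K27ac region there, DKO CD8 had 1204 reads and WT CD4 360, a centred log2 ratio of 2.14. No group had an H3K4me3 island, WT CD8 had no H3K9ac island, and a Tcf1 peak lay in the region. Of the 5 highest regions, 1 other was more than 2-fold apart in both acetylation marks. It was chromosome 6, 71270801 to 71275200, where DKO CD8 had 79 H3K9ac reads and WT CD4 43 (1.46, 0.91 to 2.03). There H3K27ac had 177 and 101 reads (1.20), H3K4me3 was called in DKO CD8 and WT CD8 with 60 reads each and not in WT CD4, and a Tcf1 peak was present too.

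The other 3 of the 5 highest showed less in H3K27ac. On chromosome 13, 24706001 to 24709800, DKO CD8 had 165 H3K9ac reads and WT CD4 77 (1.68), with an H3K27ac log2 ratio of 0.31. On chromosome 6, 42299201 to 42301800, the reads were 53 and 26 (1.61) and H3K27ac was at 0.45. On chromosome 6, 48504001 to 48507000, they were 62 and 37 (1.33) and H3K27ac was at 0.21. H3K27ac was thus above its median ratio in each of the 5. A Tcf1 peak lay in the chromosome 13 region and in the last of the chromosome 6 regions, and none in the other.

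The 5 lowest ratios were regions of 1.4 to 3.2 kb, against 2.6 to 4.4 kb for the 5 highest, with all 3 active marks in each of the 3 groups. On chromosome 16, 11253201 to 11255000, DKO CD8 had 33 H3K9ac reads and WT CD4 130 (-1.39, -1.99 to -0.83). There H3K4me3 was also lower (40 and 130 reads, -1.08), while H3K27ac was at 0.15. On chromosome 3, 52071401 to 52074600, DKO CD8 had 57 reads and WT CD4 224 (-1.39), with H3K27ac at -0.39. The rest were chromosome 3, 96531001 to 96532400 (21 and 81 reads, -1.36), chromosome 14, 65715001 to 65717400 (26 and 98, -1.33), and chromosome 5, 148241201 to 148243400 (40 and 145, -1.27), with H3K27ac at -0.60, -0.77 and -0.09. Tcf1 peaks lay in the chromosome 14 and chromosome 5 regions and in the wider chromosome 3 region, and none in the others. WT CD8 had between 18 and 50 H3K9ac reads at these 5 places, near the DKO CD8 numbers, on a library whose islands hold fewer reads in all. At the 5 shared regions with the most reads and no H3K27me3, WT CD8 had 105 to 153 reads and DKO CD8 183 to 309. Like raw numbers in these 2 libraries thus do not mean like levels.

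The shared regions with the most reads and no H3K27me3 lay within 0.28 (log2) of the median ratio, with 1 exception. On chromosome 11, 87561001 to 87572400, DKO CD8 had 309 reads and WT CD4 383 (0.28, 0.05 to 0.50), and 4 Tcf1 peaks lay there. On chromosome 17, 84579201 to 84590800, they had 235 and 342 (0.04), and on chromosome 1, 90593001 to 90599400, 183 and 287 (-0.06). On chromosome 9, 32502801 to 32510200, H3K9ac was even (237 and 337 reads, 0.08) while H3K27ac was lower in DKO CD8 (1070 and 2282 reads, -0.70). The exception was chromosome 5, 114274001 to 114284400, with 265 and 252 reads (0.66, 0.40 to 0.91) and 4 Tcf1 peaks.

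Of the 1909 regions of DKO CD8 alone, 268 had DKO CD8 H3K27ac and no H3K27me3 island in any group. The strongest of these, on chromosome 11, 5068001 to 5071600, had 116 H3K9ac reads in DKO CD8 and 60 in WT CD8. H3K27ac was called there in both groups, DKO CD8 with 99 reads and WT CD4 with 84 (0.63), and H3K4me3 in WT CD4 only, with 90 reads. On chromosome 9, 123675801 to 123680200, DKO CD8 had 79 H3K9ac reads, 58 of H3K4me3 and 362 of H3K27ac, against 209 H3K27ac reads in WT CD4 (1.19) and no island of the other 2 marks. WT CD8 had 48 H3K9ac and 35 H3K4me3 reads there. Both places had H3K9ac in both CD8 groups.

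On chromosome 11, 72903601 to 72908000, DKO CD8 had 62 H3K9ac reads, WT CD8 and WT CD4 had no H3K9ac island, and H3K27ac had 190 reads in DKO CD8, 40 in WT CD4 and 19 in WT CD8. Its H3K27ac log2 ratio was 2.64, and a Tcf1 peak with a score of 280.5 lay there. On chromosome 2, 52553401 to 52557600, DKO CD8 had 65 H3K9ac and 48 H3K27ac reads and WT CD4 none of either, while WT CD8 had 233 H3K27ac reads. On chromosome 13, 91313001 to 91315000, DKO CD8 had 61 H3K9ac and 67 H3K27ac reads, WT CD8 had 60 and 33, and WT CD4 had no island. On chromosome 7, 50692401 to 50695800, a place chosen after its values were seen, DKO CD8 had 55 H3K9ac, 233 H3K27ac and 40 H3K4me3 reads, WT CD8 had all 3 marks (29, 42 and 35 reads), WT CD4 had none, and a Tcf1 peak was present.

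Of the 27984 regions of WT CD4 alone, 5446 had WT CD4 H3K27ac and no H3K27me3 island. The strongest, on chromosome 11, 99010401 to 99018000, had 310 H3K9ac reads in WT CD4 and 91 in WT CD8. There H3K27ac had 423 reads in DKO CD8 against 1525 for WT CD4 (-1.46), H3K4me3 25 and 108 (-1.49), and 2 Tcf1 peaks were present. All 3 active marks were thus lower in DKO CD8 than in WT CD4 at this place. On chromosome 5, 33079001 to 33085000, WT CD4 had 266 H3K9ac, 779 H3K27ac and 396 H3K4me3 reads and DKO CD8 no island of any, while WT CD8 had 365 H3K9ac and 195 H3K4me3 reads and no H3K27ac island.

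Places with all 3 active marks in WT CD4 and none in either CD8 group were chromosome 13, 6604601 to 6613200 (221 H3K9ac, 175 H3K27ac and 27 H3K4me3 reads), and, chosen after its values were seen, chromosome 8, 72074001 to 72079400 (130, 154 and 19). Chromosome 16, 76135201 to 76143800, had 185 H3K9ac reads in WT CD4 and 59 in WT CD8, with 229 H3K27ac reads in DKO CD8 and 228 in WT CD4, a centred log2 ratio of 0.40. On chromosome 13, 99757601 to 99765600, WT CD4 had 170 H3K9ac reads, and H3K27ac was lower in DKO CD8 (105 and 329, -1.25). Among the 5 strongest places of this class, H3K27ac thus had no DKO CD8 island at 2, was lower in DKO CD8 at 2 and above its median ratio at 1.

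Without these conditions the strongest regions lay where many libraries had islands. They were chromosome X, 92130401 to 92163400, in DKO CD8 alone (928 reads, with H3K27me3 in all 3 groups), chromosome 17, 13737001 to 13746200, in WT CD4 alone (5056 reads, islands in 10 of the 12 histone libraries), and chromosome 11, 3019801 to 3100200, in both (15829 and 16111 reads, 11 of 12). Leaving out the regions with islands in at least 10 libraries, an alternative chosen after seeing the data, left 4216 shared regions, 254 higher and 139 lower.

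Sharing depended on the kind of region. Regions with H3K4me3 and H3K27ac of either group, as at active promoters, numbered 8952, and 47.2% were shared between DKO CD8 and WT CD4. Those with H3K27ac and no H3K4me3, as at active enhancers, numbered 3998, and 5.15% were shared. At 50 to 99 WT CD4 reads the shares were 74.6% (72.9 to 76.3) of 2654 and 28.0% (21.8 to 35.0) of 189, so the order held at like strength. At 100 or more reads they were 90.1% of 780 and 59.1% (36.4 to 79.3) of 22. By count, WT CD4 alone had 4535 promoter-like regions and 3552 with H3K27ac only, and DKO CD8 alone had 188 and 240.

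A Tcf1 peak of splenic CD8 cells lay in 43.9% (42.4 to 45.3) of shared regions, in 3.20% where DKO CD8 alone had H3K9ac and in 5.64% where WT CD4 alone did. At equal covered length the order of the last 2 turned, at 12.5% and 11.4%. Turned around, 55.1% of 3646 regions with a peak and 8.34% of 30826 without one were shared. The order held in each WT CD4 read class, with 42.4% and 17.7% at 30 to 49 reads, 80.0% and 55% at 50 to 99 and 95.5% and 65.7% at 100 or more. It also held within the promoter-like regions (62.9% and 39.1%) and within those with H3K27ac only (15.6% and 3.44%). At shared regions the median H3K9ac ratio hardly differed by peak, at -0.07 in 2008 regions with a peak and 0.05 in 2571 without one. Higher calls were fewer with a peak, 69 (3.44%) against 209 (8.13%), and lower calls were 77 (3.83%) and 79 (3.07%). The median WT CD4 reads were 66 with a peak and 51 without.

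Of the 7807 Tcf1 peaks, 2113 (27.1%) lay in H3K9ac regions of both groups, 114 (1.46%) in those of DKO CD8 alone, 1759 (22.5%) in those of WT CD4 alone and 3821 (48.9%) in none. The authors' peak score, used here only to rank peaks, did not order them: in 4 equal groups of peaks from the lowest to the highest scores, 22.8%, 28.9%, 31.9% and 24.6% lay in regions of both. Most of the 2008 shared regions with a peak held 1 (1781), 207 held 2 and 20 held at least 3.

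WT CD8, the wild type of the same lineage, had an H3K9ac island at 59.2% of shared regions, at 5.19% (4.23 to 6.28) where DKO CD8 alone had one and at 6.32% (6.04 to 6.61) where WT CD4 alone did. At equal covered length these last 2 were 14.9% and 13.2%, in the reverse order. Its H3K27ac islands, from a library with many more islands, lay at 88.0%, 29.3% and 21.9%. At 50 or more reads the WT CD8 H3K9ac shares were 84.1% of shared and 15.6% of lone DKO CD8 regions, and 74.2% of shared and 32.0% of lone WT CD4 regions. Most regions of DKO CD8 alone thus had no H3K9ac island in WT CD8 either.

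H3K27me3 islands at shared H3K9ac regions were more frequent in DKO CD8 than in the wild types. They touched 530 regions (11.6%, 10.7 to 12.5) in DKO CD8, 278 (6.07%, 5.40 to 6.80) in WT CD4 and 150 (3.28%, 2.78 to 3.83) in WT CD8. The DKO CD8 list was the shortest of the 3, with 23933 islands against 34013 and 34756. DKO CD8 alone had the mark, with none in WT CD4, at 361 shared regions, WT CD4 alone at 109, and both at 169. The DKO CD8 H3K27me3 islands there were smaller than in general, with medians of 44 reads and 2000 bp against 52 reads and 2600 bp over the whole list, and those of WT CD4 were not, with 72.5 reads against 55. At the 361 regions the median H3K9ac ratio was -0.07 and the median WT CD4 H3K9ac reads 79, and at the 109 they were 0.45 and 39, so the ratios differ along with the read class.

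Chromosome X differed from the autosomes in its DKO CD8 regions and in the ratios of its shared regions. The ratios differed less within read classes. Of the 198 DKO CD8 regions on X, 110 (55.6%) had no WT CD4 island, against 28.6% on the autosomes, which ranged from 19.1% on chromosome 19 to 46.0% on chromosome 14. Seen from WT CD4, X was like the autosomes: 86.2% of its 639 regions had no DKO CD8 island, against 85.9%. At its 88 shared regions the median H3K9ac log2 ratio was 0.43, with 66 above 0, 15 called higher and 0 lower, while the medians of the autosomes lay between -0.05 and 0.05. Within classes of like read number the gap was smaller: at 30 to 49 WT CD4 reads the medians were 0.20 on X (39 regions) and 0.17 on the autosomes, and at 50 to 99 reads 0.06 (18 regions) and -0.17. In the weaker classes X lay below the autosomes, at 1.09 (10 regions) and 1.37 for 10 to 19 reads and at 0.63 (17 regions) and 0.72 for 20 to 29. WT CD4 reads are the denominator of the ratio, so classes of these reads cannot show what part read number has in the gap. H3K4me3 and H3K27me3 also had raised medians on X, of 0.40 (168 regions) and 0.39 (230), and H3K27ac did so by less, at 0.07 (352). Of the 110 X regions of DKO CD8 alone, 11 had DKO CD8 H3K27ac, 31 DKO CD8 H3K4me3, 47 an H3K27me3 island of some group and 1 a WT CD8 H3K9ac island. The sources at hand do not say whether the mice differed in sex, and its part in these values was not tested.

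**Figure D5:**
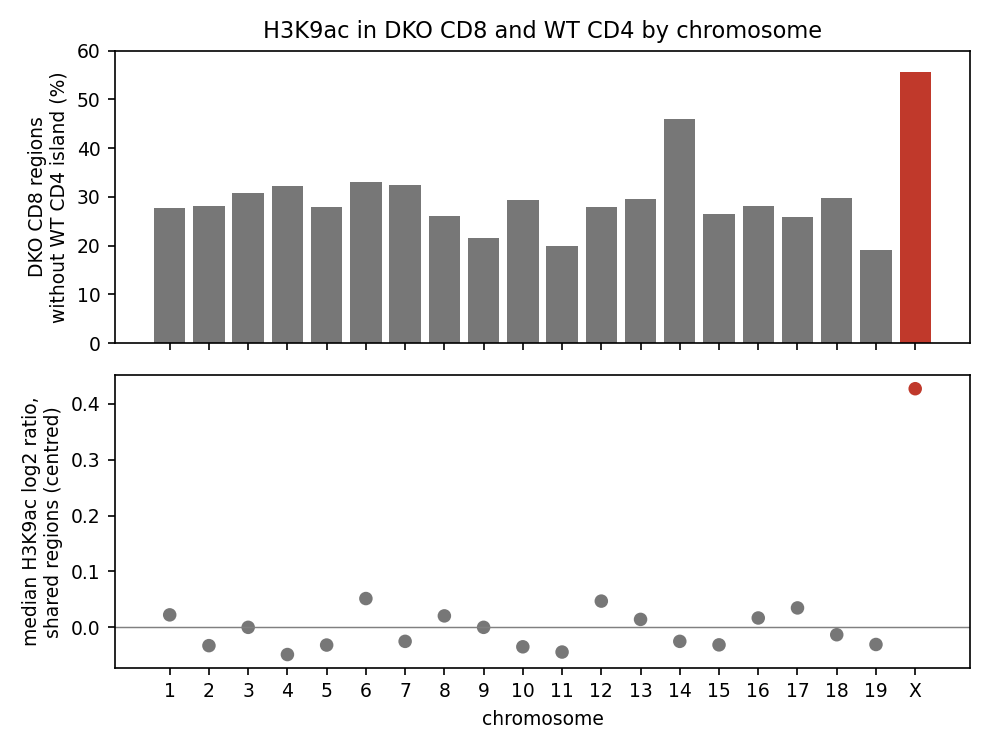
Upper plot: share of DKO CD8 H3K9ac regions without a WT CD4 island (vertical axis, percent) on each chromosome (horizontal axis). Lower plot: median centred H3K9ac log2 ratio of the shared regions, DKO CD8 over WT CD4; chromosome X is at 55.6% and 0.43, and chromosome 14 at 46.0% with a median of -0.03.

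Regions of DKO CD8 alone were also crowded in a few places. The densest 1 Mb windows were chromosome 4 from 146000001 with 9 such regions, of which 5 touched H3K27me3, chromosome 14 from 43000001 with 8 (3) and from 26000001 with 7 (5), and chromosome 7 from 23000001 with 7 (1). No region of DKO CD8 alone in these 4 windows had a DKO CD8 H3K27ac island. In the next windows, with 6 such regions each, 2 had one on chromosome 18 from 63000001 and 1 on chromosome 2 from 178000001. The counts were 0 on chromosome 14 from 6000001 and on chromosome 8 from 13000001. Over all regions of DKO CD8 alone, 19.9% had DKO CD8 H3K27ac and 36.4% touched H3K27me3. Their number per Mb ran from 0.55 to 1.14 over the autosomes. WT CD4 alone had 40, 17, 28 and 16 regions in the same windows.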

How the data were processed

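The deposited island lists hold, for each interval, a whole-number read count that was not normalized. Positions are of the mm9 build, per the submitters' processing notes, which list the tools SICER 1.1, MACS 1.4.2, Bowtie2 2.2.5 and FastQC without their roles. Each peak of the deposited Tcf1 list has a score set by the authors, none below 50. Groups followed the sample titles. No source at hand states the total reads of a library, and depth is described by reads in islands, 281383 for DKO CD8 H3K9ac and 1058430 for WT CD4 H3K9ac.

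Islands lie on a 200 bp grid, at least 600 bp apart within an H3K9ac list. Islands of both libraries sharing at least 1 bp were merged, and log2 ratios of island reads at shared regions were centred on their median. Reads outside a library's own islands are not known, so no fold is given where a library had no island. H3K27ac, H3K4me3 and H3K27me3 of both groups were merged and centred in the same way, and their ratio was read over the whole region of that mark that touched an H3K9ac region. Intervals of ratios are exact, given the sum of the counts. Positions are 1-based.

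Named regions are 5 of each class, ranked by reads among those of 1 library with H3K27ac of the same cells and no H3K27me3. Shared ones are the 5 highest and 5 lowest ratios with at least 50 reads, islands of both over at least 50% of the region and no H3K27me3, and the 5 with the most reads and no H3K27me3. The strongest of each class without conditions was added. The regions, subsets and rules were chosen with earlier results of these data known, and the subsets by read class were set after seeing the data. Planned counts at promoters of listed genes and cell type markers were not run, because the annotation at hand is of a later build and positions were not converted, and no sequence is printed for the same reason.

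Values were computed with pandas 2.3.3, numpy 2.4.6 and SciPy 1.17.1 under Python 3.11.15, and figures drawn with matplotlib 3.10.9. Merging and overlap were checked against bedtools 2.31.1, and the computation of ratios was tested on simulated data. Alternatives changed the islands that entered, the overlap, the merging distance, the scale, the fold, the minimum reads and the cover, and left out regions with H3K27me3 or with islands in at least 10 of 12 histone libraries.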

Additional observations from a re-analysis of the deposited data

How the results depend on the processing

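No paired analysis was possible because each group had 1 library per mark and the labels give no replicate numbers. At equal covered length, 28.0% of regions were shared, DKO CD8 alone had 2878 and WT CD4 alone 6418, and the Jaccard index in bp, 12.3% as deposited, was 26.8%. Own H3K27ac then lay at 42.6% of regions of DKO CD8 alone and 43.4% of WT CD4 alone, H3K27ac of both at 98.3% of shared regions, WT CD8 H3K9ac at 14.9% and 13.2% of the regions of 1 library, and Tcf1 peaks at 46.8% of shared, 12.5% of DKO CD8 alone and 11.4% of WT CD4 alone, so the order of the classes of 1 library turned for WT CD8 H3K9ac and Tcf1. With islands above their list's median reads, the regions were 2604 shared (16.1%), 535 of DKO CD8 alone and 13056 of WT CD4 alone, with a Jaccard index of 13.9%. The shares, in the same order, were 29.7% and 48.3% for own H3K27ac, 98.0% for H3K27ac of both, 10.7% and 16.2% for WT CD8 H3K9ac, and 51.6%, 5.79% and 13.99% for Tcf1 peaks. Without regions that touch H3K27me3, 15.4% were shared and 1214 lay in DKO CD8 alone, with a Jaccard index of 14.03%, own H3K27ac at 22.1% and 27.1%, H3K27ac of both at 97.7% and Tcf1 peaks at 4.53% and 6.83% of regions of 1 library.

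With at least 50 reads, chosen after seeing the data, 2841 regions were shared (67.6%), 90 were of DKO CD8 alone and 1270 of WT CD4 alone. Own H3K27ac was then at 32.2% and 66.6%, H3K27ac of both at 98.9%, WT CD8 H3K9ac at 15.6% and 32.0%, and Tcf1 peaks at 51.7%, 4.44% and 20.9%. Without regions with islands in at least 10 of 12 libraries, also chosen after seeing the data, 12.4% were shared. Regions at least 2-fold higher and lower numbered 3391 and 0 on total island reads, 131 and 61 where islands of both covered at least 50% of the region, and 62 and 12 at 3-fold, and 122 were higher with at least 50 reads in the stronger library. The 1 median that changed sign was that of H3K4me3 at regions lower for H3K9ac, which was 0.0496 at 3-fold, where few regions were left. The cause of the other moves was not tested. Of 107 values recomputed, 53 were classed as unmoved, 53 as moved and 1 as reversed. Shares were classed as unmoved within their counting interval, and counts within 1.5 times. Medians of log2 ratios have no such interval and were classed as unmoved where their sign held, also where their size changed. The H3K27ac median at regions lower for H3K9ac, for example, went from -0.05 to -0.45 at 3-fold. Total depth is not known, and no value is given for a library without an island, so a weak region below the calling minimum cannot be told from an absent one.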
